A study of Homo sapiens with 8 samples.

Results

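Lipid handling under control of the peroxisome proliferator-activated receptors (PPARs) was examined in DLD1 cells through 7 genes: the receptors PPARA and PPARG and the targets ANGPTL4, PDK4, CPT1A, ACADM and PLIN2. They were taken as every non-control probe that the array files assign to one of these symbols, which gave 11 probes of 50599 and 7 of 36337 gene names. DLD1 is a human colorectal cancer (CRC) cell line of the CIMP-high class, in which many CpG islands are methylated. Expression was measured on 8 one-colour Agilent arrays in 4 groups of 2. Cells received control siRNA (siCONT) or siRNA against UHRF1 and were then treated for 24 h with mock or with the histone deacetylase inhibitor trichostatin A (TSA) at 300 nM, starting 48 h after transfection. The 2 arrays of each UHRF1-depleted group carried different siRNAs, siUHRF1-1 and siUHRF1-2, while the 2 siCONT arrays of a treatment carried the same control. All groups came from the same cell line and all were transfected, so no untransfected cells enter any comparison. The genes were picked from results of these arrays, among them the low ANGPTL4 signal under TSA. ANGPTL4 values that involve TSA are therefore a description and no test. The p-values of the other genes come from the same arrays and are no independent support.

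PPARs are nuclear receptors that sit on DNA as heterodimers with retinoid X receptors (RXRs) and are switched on by fatty acids and their derivatives. PPARA drives fatty acid oxidation and ketone body synthesis in fasting liver, and PPARG drives lipid storage in fat and is also abundant in colonic epithelium. The named targets cover successive steps of this program: ANGPTL4 is a secreted inhibitor of lipoprotein lipase, PLIN2 coats lipid droplets, CPT1A loads long-chain fatty acids for entry into mitochondria, ACADM catalyses an early step of beta-oxidation of medium-chain fatty acids, and PDK4 shuts off pyruvate dehydrogenase so that fat rather than glucose is burned. None of the named genes encodes an enzyme of ketone body synthesis itself. Genes of ketone body metabolism were followed in a separate list.

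Levels are log2 processed intensities minus the array's own 75th percentile over all non-control probes, so a value of 0 marks a probe at that percentile. They can be compared between arrays for the same probe but not between genes. A change was called when the limma adjusted p was under 0.05 and the change was at least 2-fold. The 2 siCONT arrays of a treatment differed by little more than repeated spots on an array did (1.16 times the spot noise with mock and 1.08 times with TSA, against 12.5 and 10.3 times for the 2 siUHRF1 arrays). The reported fit still took all 8 arrays as separate replicates, so its p-values and SEs may be too small. For that reason siCONT values are given without an SD. Calls are also given from a fit with 6 samples, in which each siCONT pair was averaged to 1 sample. Mock and TSA arrays occupied different rows of one slide, so TSA and slide position cannot be told apart. UHRF1 itself stood at 31.9% (siUHRF1-1) and 24.8% (siUHRF1-2) of its siCONT level with mock, and at 16.7% and 11.1% with TSA. Per array, 43.3% to 48.0% of probes exceeded background. All 7 markers of colon epithelial cell lines were above background on all 8 arrays, whereas 4 of 5 adipocyte markers were above background on none. The 4 leukocyte markers were divided, with CD14 and CD68 above background on all 8 arrays and PTPRC and CD3E on none. No hepatocyte or fibroblast marker was above background on all 8 arrays, and 3 of 5 and 2 of 4 were on none. Of all markers, those called under TSA were the epithelial VIL1, which changed by -1.42 in siCONT and -2.50 in depleted cells on the log2 scale, and the fibroblast COL1A1, at least 3.07-fold and 7.66-fold higher, and their part in the results was not tested. Since RNA was taken from whole cultures, fewer cells expressing a gene and less RNA per cell cannot be told apart.

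Across the 6 comparisons the named genes passed the call only with TSA, and always as lower. ANGPTL4 passed it in the 3 comparisons of a TSA group with a mock group, which is a description and no test because these values led to its choice. Of the other 6 genes, TSA in siCONT cells gave calls for 2 (PDK4 and CPT1A, both lower), where 18.6% of all tested probes were called and 8.21% were called lower. The combination of UHRF1 depletion and TSA, set against siCONT with mock, gave calls for 2 of the other 5 tested genes (PDK4 and PPARA, both lower), against 25.6% of all tested probes in either direction and 11.0% lower. TSA in UHRF1-depleted cells gave 0 calls among the other 6, against 20.7% and 9.00% of all tested probes. There limma counted 5 of the other 6 at an unadjusted p under 0.05, beside 11757 of 23902 tested probes. Because the genes were picked with these results known, no weight can be put on how their counts compare with those shares. With the siCONT arrays as 1 sample PPARA was called for the combination, ANGPTL4 met the limits there and no other gene did in these comparisons, where 1.55%, 15.4% and 17.6% of all tested probes were called. The share of higher among all calls moved with the scaling, from 56.9% to 31.6% under median scaling for the combination and from 56.5% to 30.1% for TSA in depleted cells.

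UHRF1 depletion alone gave no call among the 7 genes, neither under mock (4.12% of all tested probes called, 0.0223% with siCONT as 1 sample) nor under TSA (8.26% and 0.692%). At an unadjusted p under 0.05 limma counted 2 of 7 genes in each of these comparisons, beside 6863 of 22385 and 8270 of 23836 tested probes. The methods' t-test, unadjusted, called 0 of the genes in both. The interaction, which asks whether the TSA effect differed between depleted and siCONT cells, also gave 0 of 7. There limma counted 1 gene at an unadjusted p under 0.05, beside 7041 of 24580 tested probes. That gene was ANGPTL4, whose TSA values led to its choice, so the count is no test. Among all probes 4.89% were called in the interaction, and 0% with siCONT as 1 sample, where limma still counted 2172 of 24580 probes at an unadjusted p under 0.05. The median log2 change of the named genes was -0.58 for TSA in siCONT cells, -1.09 for UHRF1 depletion plus TSA and -0.73 for TSA in depleted cells, beside -0.11, -0.14 and -0.04 for all tested probes. Every tested gene of the 7 had a negative fitted change in these comparisons, including those that did not pass the test. These medians and signs include the ANGPTL4 values that led to its choice, so they are a description and no test. The share of all probes with a negative change was not counted. For UHRF1 depletion the medians were -0.21 under mock and 0.09 under TSA, beside -0.10 and 0.00 for all tested probes.

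**Figure D1:**
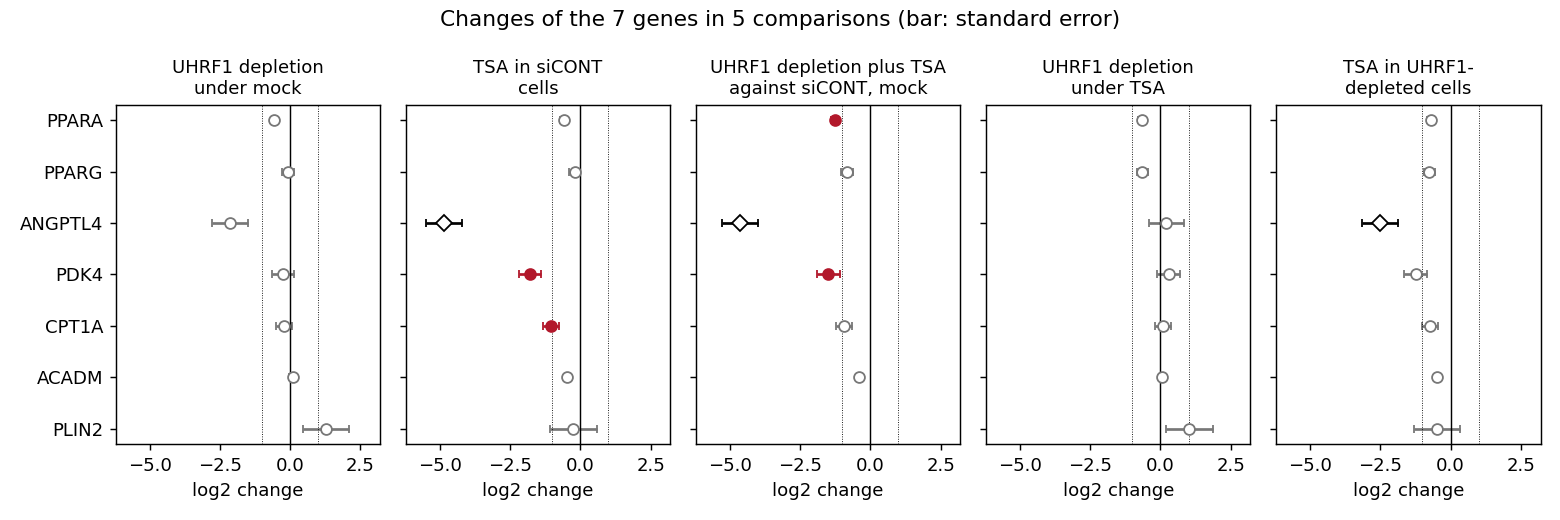
Fitted log2 change of each gene's brightest probe in 5 comparisons, with the standard error as a bar. Filled red points passed the call (limma adjusted p under 0.05 and at least 2-fold, the dotted lines), and open grey points did not. Open black diamonds mark ANGPTL4 where a TSA group is compared with a mock group, values that led to its choice and are shown without a test. All filled points lie left of 0, in panels of that kind. PLIN2 has no point for UHRF1 depletion plus TSA, where its probe was not tested.

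The promoters of the 4 genes with a call in any comparison are shown because UHRF1 binds hemimethylated CpG sites, and capitals mark every CpG in them. Each is the stretch of 250 bases before the RefSeq start on GRCh38.p14, read 5′ to 3′ on the gene's strand. The arrays did not measure methylation at these sites.

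ANGPTL4, chr19:8363905-8364154, plus strand: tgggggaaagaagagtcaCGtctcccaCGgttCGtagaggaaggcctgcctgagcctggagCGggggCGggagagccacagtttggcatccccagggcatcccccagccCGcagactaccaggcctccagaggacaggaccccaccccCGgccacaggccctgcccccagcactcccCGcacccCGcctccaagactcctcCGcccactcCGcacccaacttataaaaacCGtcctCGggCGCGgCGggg
PDK4, chr7:95596517-95596766, minus strand: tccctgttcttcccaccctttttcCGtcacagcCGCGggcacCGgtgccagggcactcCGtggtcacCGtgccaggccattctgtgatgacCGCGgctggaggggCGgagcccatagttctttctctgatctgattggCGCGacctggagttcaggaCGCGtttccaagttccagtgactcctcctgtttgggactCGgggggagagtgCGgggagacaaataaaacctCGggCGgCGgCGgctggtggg
CPT1A, chr11:68844278-68844527, minus strand: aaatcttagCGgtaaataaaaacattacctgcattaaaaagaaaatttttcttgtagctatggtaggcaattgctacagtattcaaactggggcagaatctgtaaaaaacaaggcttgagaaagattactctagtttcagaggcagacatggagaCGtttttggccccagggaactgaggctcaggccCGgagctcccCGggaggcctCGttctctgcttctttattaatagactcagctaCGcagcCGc
PPARA, chr22:46150276-46150525, plus strand: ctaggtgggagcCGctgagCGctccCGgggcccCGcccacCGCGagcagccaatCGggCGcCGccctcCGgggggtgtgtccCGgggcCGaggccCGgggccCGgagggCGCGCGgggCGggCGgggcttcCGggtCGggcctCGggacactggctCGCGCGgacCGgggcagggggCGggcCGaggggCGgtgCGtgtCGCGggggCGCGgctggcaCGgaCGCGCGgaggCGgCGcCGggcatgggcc

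These stretches held 16 CpG in ANGPTL4, 19 in PDK4, 7 in CPT1A and 41 in PPARA. In the full 300-base windows, which add 50 bases after the start, PPARA held 52 CpG at each of its 2 starts, a number reached by 0.78% of 35116 RefSeq windows. ANGPTL4 held 20, PDK4 21, PLIN2 36, ACADM 30 and CPT1A 13, beside a median of 14 over all windows, and the 6 windows of PPARG held between 1 and 10. The full PPAR-RXR element, searched on both strands as AGGTCA repeated with any 1 base between the copies, was in 0.0228% of all windows and in none of the 13 windows of the named genes. At so low a share, its absence from 13 windows says nothing about these genes. Variants of the element and sequence outside the windows were not searched. The repeated unit AGGTCA, which is contained in that element, was in 13.8% of all windows and, among the named genes, in 3 windows of PPARG. The GC box GGGCGG was in 45% of all windows and in those of ANGPTL4, PDK4, PLIN2, ACADM and PPARA.

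PPARA, the receptor most tied to fatty acid oxidation, was lowest where UHRF1 depletion and TSA were combined. Its brighter probe (A_24_P570049, hg19 chr22:46639178-46639237) read 0.20 and 0.21 in siCONT cells with mock, -0.30 with siUHRF1-1 and -0.40 with siUHRF1-2 under mock, -0.46 and -0.28 in siCONT cells with TSA, and -1.16 and -0.93 in the depleted cells with TSA. The siCONT mock arrays were the highest and the depleted TSA arrays the lowest, with no overlap, while UHRF1 depletion alone and TSA alone overlapped each other. How many of all probes had such an order was not counted. The combination lowered PPARA 2.38-fold against siCONT with mock (log2 -1.25, SE 0.14, adjusted p = 0.0010, and 0.0395 with siCONT as 1 sample). On this probe neither treatment alone reached 2-fold: the change was -0.56 for UHRF1 depletion under mock (adjusted p = 0.0573) and -0.58 for TSA in siCONT cells (adjusted p = 0.0189). Under TSA, UHRF1 depletion gave -0.67 (adjusted p = 0.0245). The interaction came to -0.11 (SE 0.19, adjusted p = 0.720).

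The dimmer PPARA probe (A_23_P211643, hg19 chr22:46615754-46615813), which was above background on 7 of 8 arrays, gave another order. It read -1.53 and -1.57 in siCONT cells with mock, -2.14 and -3.10 with UHRF1 depletion, -2.54 and -2.74 with TSA, and -2.09 and -2.39 with the combination. Here the combination was not the lowest group, and its change against siCONT with mock was -0.69 (SE 0.31, adjusted p = 0.114). TSA in siCONT cells was called on this probe (-1.09, adjusted p = 0.0347, and 0.321 with siCONT as 1 sample), and TSA in depleted cells gave 0.39 (adjusted p = 0.365). UHRF1 depletion under mock gave -1.07 (limma adjusted p = 0.0820, not called). The interaction was 1.47 (SE 0.44, limma adjusted p = 0.0971, not called), opposite in sign to that of the brighter probe. The probes lie apart along the gene and agree on a lower PPARA signal than in siCONT with mock in every other group, but not on the further fall under the combination. With the mean of the probes the combination gave -0.97, and with normexp background correction the brighter probe gave -0.80, both short of 2-fold and not called.

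PPARG, the receptor that colorectal cancer studies have placed among genes held down by UHRF1, gave no called change after UHRF1 depletion in these cells. Its brighter probe (A_23_P252062, 10 spots an array, hg19 chr3:12458499-12458558) read 3.50 and 3.54 in siCONT cells with mock, 3.72 with siUHRF1-1 and 3.16 with siUHRF1-2 under mock, 3.32 and 3.33 in siCONT cells with TSA, and 2.56 and 2.81 in depleted cells with TSA. The siRNAs fell on either side of siCONT under mock, and the depleted TSA arrays were the lowest of all 8. UHRF1 depletion under mock changed PPARG by -0.08 (SE 0.20, adjusted p = 0.818, and 0.05 with quantile normalization) and TSA in siCONT cells by -0.19 (adjusted p = 0.473). The combination gave -0.84 (SE 0.20, adjusted p = 0.0167, 1.78-fold lower) and TSA in depleted cells -0.76 (adjusted p = 0.0274), both under the 2-fold limit, and with siCONT as 1 sample the adjusted p were 0.164 and 0.121. The interaction was -0.57 (SE 0.28, adjusted p = 0.243).

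The other PPARG probe (A_33_P3350726, hg19 chr3:12434128-12434187) showed the same order with smaller steps. It read 2.13 and 2.13, 2.33 and 1.83, 1.96 and 1.91, and 1.56 and 1.59 in the same order of groups. Its change was -0.56 for the combination (adjusted p = 0.0422) and -0.05 for UHRF1 depletion under mock (adjusted p = 0.865).

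**Figure D2:**
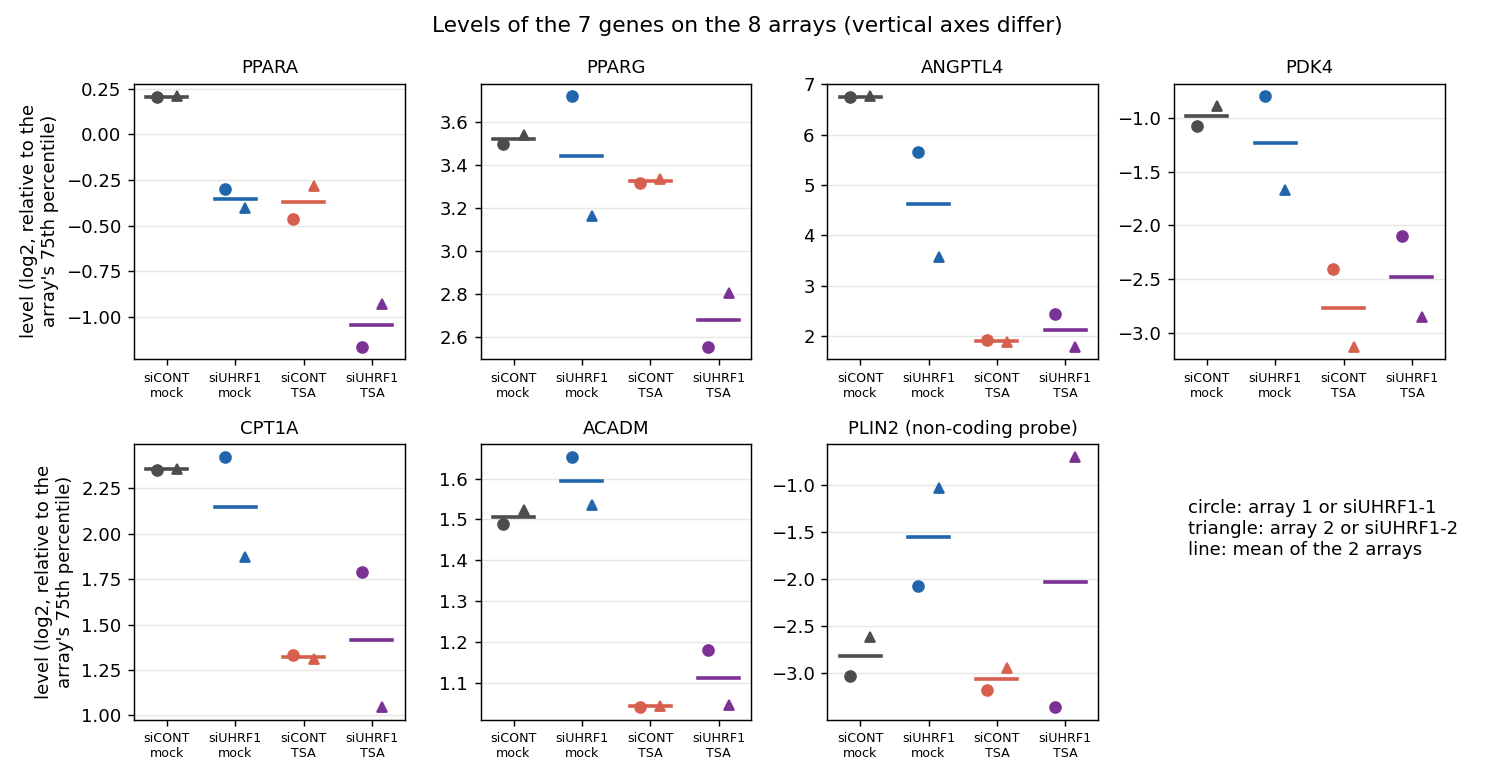
Level of each gene's brightest probe on the 8 arrays (log2, with the array's 75th percentile at 0), by group. Circles are array 1 or siUHRF1-1, triangles array 2 or siUHRF1-2, and lines the mean of the 2 arrays. ANGPTL4 stood at 6.75 and 6.77 in siCONT with mock and between 1.80 and 2.44 on the 4 TSA arrays, and the vertical axes differ between panels.

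ANGPTL4 showed the widest range of the 7 genes, and its levels are given as a description since they led to its choice. Its probe (A_33_P3295358, hg19 chr19:8439197-8439256) read 6.75 and 6.77 in siCONT cells with mock, 5.66 with siUHRF1-1 and 3.58 with siUHRF1-2 under mock, 1.92 and 1.90 in siCONT cells with TSA, and 2.44 and 1.80 in depleted cells with TSA. The 4 TSA arrays lay together at the bottom, whether or not UHRF1 was depleted, and the depleted mock arrays lay between them and siCONT with mock. ANGPTL4 was 28.8-fold lower with TSA in siCONT cells (log2 -4.85) and 24.8-fold lower with UHRF1 depletion plus TSA (-4.64), and within the depleted cells it was 5.66-fold lower with TSA (-2.50), at -3.22 for siUHRF1-1 and -1.78 for siUHRF1-2. The change within depleted cells moved most with the mock arrays, at -1.46 without the siUHRF1-1 mock array and -3.54 without the siUHRF1-2 mock array. It was -2.83 without the siUHRF1-1 TSA array and -2.18 without the siUHRF1-2 TSA array.

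UHRF1 depletion under mock left 0.469 of the siCONT signal of ANGPTL4 with siUHRF1-1 and 0.111 with siUHRF1-2. The siRNAs thus pointed the same way with unequal size, and the mean change was -2.13 (SE 0.63, adjusted p = 0.0858, not called). The siCONT mock arrays used here were also the reference for the TSA values behind the choice. With only 1 array left in the depleted group, the change was -3.18 without siUHRF1-1 and -1.09 without siUHRF1-2. Under TSA no such difference was seen: siUHRF1-1 stood 0.54 above and siUHRF1-2 0.11 below siCONT, for a mean of 0.21 (SE 0.63). That mean is a description, since the TSA values led to the choice. The interaction, which holds the TSA values behind the choice, was 2.35 (SE 0.89), and 3.39 without the siUHRF1-1 mock array.

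PDK4, the kinase that turns off pyruvate dehydrogenase in fasting, was lower on all 4 TSA arrays than on any mock array. The share of all tested probes with such a separation was not counted, so nothing particular to PDK4, or to CPT1A and ACADM below, is read from it. For TSA in siCONT cells limma counted 11809 of 23233 probes at an unadjusted p under 0.05. Its probe (A_24_P243749, hg19 chr7:95213307-95213366) read -1.07 and -0.89 in siCONT cells with mock, -0.80 and -1.67 with UHRF1 depletion, -2.41 and -3.13 in siCONT cells with TSA, and -2.10 and -2.85 in depleted cells with TSA. Within each treatment the depleted and siCONT arrays overlapped. The probe was above background on all 8 arrays but dim, with processed intensities from 47.1 to 109 with mock and from 19.3 to 34.9 with TSA. The size of its fold therefore depends on how background is handled. TSA lowered PDK4 3.45-fold in siCONT cells (-1.79, SE 0.40, adjusted p = 0.0167), and the combination lowered it 2.82-fold (-1.50, adjusted p = 0.0248). Both calls were lost with siCONT as 1 sample (adjusted p = 0.185 and 0.109) and with normexp background correction, where the changes were -0.87 and -0.74. The first was also lost without either siCONT mock array (adjusted p = 0.0661 and 0.0832) or the second siCONT TSA array (0.0963), and the other without either siCONT mock array (0.0783 and 0.106) or the siUHRF1-2 TSA array (0.119). In depleted cells the TSA change was -1.24 (adjusted p = 0.0523), at -1.30 for siUHRF1-1 and -1.19 for siUHRF1-2, and with the array number, here the siRNA, as a replicate block it was called (adjusted p = 0.0226). For UHRF1 depletion the PDK4 change was -0.25 under mock (adjusted p = 0.694) and, with TSA present, 0.29 (adjusted p = 0.648).

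CPT1A, the gate of mitochondrial fatty acid uptake, showed the same separation on a smaller scale. Its probe (A_23_P104563, 10 spots an array, hg19 chr11:68527063-68527122) read 2.35 and 2.36 in siCONT cells with mock, 2.42 and 1.87 with UHRF1 depletion, 1.34 and 1.31 in siCONT cells with TSA, and 1.79 and 1.05 in depleted cells with TSA. The siCONT TSA arrays lay between the siRNAs under TSA, and the siCONT mock arrays lay between them under mock. TSA lowered CPT1A 2.04-fold in siCONT cells (-1.03, SE 0.28, adjusted p = 0.0314), a call just past the 2-fold limit that was lost with siCONT as 1 sample (adjusted p = 0.322) and without any of the 4 siCONT arrays in turn (adjusted p from 0.119 to 0.128). The change was -0.94 for the combination (adjusted p = 0.0365) and -0.73 for TSA in depleted cells (adjusted p = 0.0881). Without the siUHRF1-1 TSA array, which leaves 1 array in that group, these changes were -1.31 and -1.10.

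ACADM, the medium-chain acyl-CoA dehydrogenase, differed little but evenly. Its probe (A_23_P96761, hg19 chr1:76227040-76228420, a span that crosses an intron) read 1.49 and 1.52 in siCONT cells with mock, 1.65 and 1.53 with UHRF1 depletion, 1.04 and 1.04 in siCONT cells with TSA, and 1.18 and 1.04 in depleted cells with TSA. The mock and TSA arrays did not overlap. TSA changed ACADM by -0.46 in siCONT cells (SE 0.12, adjusted p = 0.0229) and by -0.48 in depleted cells (adjusted p = 0.0195), which is 1.38-fold and 1.40-fold lower and so not called. With siCONT as 1 sample the adjusted p were 0.440 and 0.179. UHRF1 depletion gave 0.09 under mock (adjusted p = 0.630) and 0.07 under TSA (adjusted p = 0.698).

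PLIN2, the lipid droplet coat protein, could hardly be read on these arrays. The brightest of its 3 probes (A_21_P0014779, hg19 chr9:19129738-19129797) is described in the file as a predicted non-coding transcript rather than the coding mRNA. It read -3.03 and -2.61, -2.07 and -1.03, -3.18 and -2.95, and -3.37 and -0.69 in the order used above, and was above background on 6 of 8 arrays. The siUHRF1-2 arrays were the highest within each treatment, and no comparison was called (adjusted p from 0.340 to 0.910 in the 5 comparisons, interaction included, where the probe was tested). Without the siUHRF1-1 TSA array the change for UHRF1 depletion under TSA was 2.37. Without the siUHRF1-2 TSA array that for TSA in depleted cells was -1.82. Each rests on 1 array in the depleted TSA group. The probe of the coding mRNA (A_23_P134953, hg19 chr9:19116370-19116429) was above background only on the siUHRF1-1 mock array (-2.96) and the siUHRF1-2 TSA array (-2.65). The remaining probe was above background on no array.

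Patterns most like each gene were sought among 14621 genes with a symbol over the 6 samples, by Pearson's r. ANGPTL4 was matched best by PPP1R3E (r = 0.997), SNORD91A (0.997) and APBB3 (0.994), PDK4 by TAF1 (0.995), PHKG2 (0.991) and GCSH (0.990), and CPT1A by MED27 (0.998), SAP130 (0.993) and INTS2 (0.989). PPARA was matched best by SGOL1 (0.998), PIGO (0.997) and GABPB2 (0.996), PPARG by NAP1L4 (0.994), KDM3A (0.994) and VPS52 (0.993), and ACADM by PCCA (0.997), C9orf142 (0.996) and PMS2L2 (0.996). The non-coding PLIN2 probe was matched best by SRPRB (0.993), GUCY2C (0.980) and SEC61A1 (0.973). These are the highest of 14621 values each, over 6 points that share siRNAs and treatments, and no gene was on more than 1 of these short lists. Pearson's r compares the shape of a pattern and not its size. PPP1R3E, SNORD91A and APBB3 spanned 1.04, 1.31 and 0.69 on the log2 scale. ANGPTL4 ran from 6.76 in siCONT with mock to 1.80 with siUHRF1-2 and TSA.

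The wider program was followed in 9 lists with 128 genes, none of them among the 7. Of these genes 83 were above background on all 8 arrays and 25 on none, the latter including LPL, the lipase that ANGPTL4 inhibits, the fatty acid transporter CD36 and the coactivator PPARGC1A. UHRF1 depletion under mock gave 7 of 93 tested genes higher and 0 lower, TSA in siCONT cells 5 of 93 higher and 14 lower, and the combination 12 of 92 higher and 13 lower. UHRF1 depletion under TSA gave 5 of 93 higher and 0 lower, TSA in depleted cells 8 of 95 higher and 15 lower, and the interaction 1 of 96 higher and 4 lower. In either direction this was 7.53%, 20.4%, 27.2%, 5.38%, 24.2% and 5.21% of the tested genes, beside 4.12%, 18.6%, 25.6%, 8.26%, 20.7% and 4.89% of all tested probes, and nothing particular to the lists is read from these shares. With siCONT as 1 sample the calls numbered 0, 2, 15, 2, 19 and 0 in the same order, and limma counted 14 of the 93 genes for UHRF1 depletion under mock and 11 of the 96 for the interaction at an unadjusted p under 0.05. Those called in that fit for TSA in siCONT cells were ACSL6 and PLIN5, and for UHRF1 depletion under TSA FABP6 and PLIN5. The median change over these genes was -0.09, -0.14, -0.22, -0.02, -0.21 and 0.11, close to the -0.10, -0.11, -0.14, 0.00, -0.04 and 0.06 of all tested probes. The calls include genes below background in a group compared, such as FABP1 and PLIN5, whose fitted change is no measured fold.

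**Figure D3:**
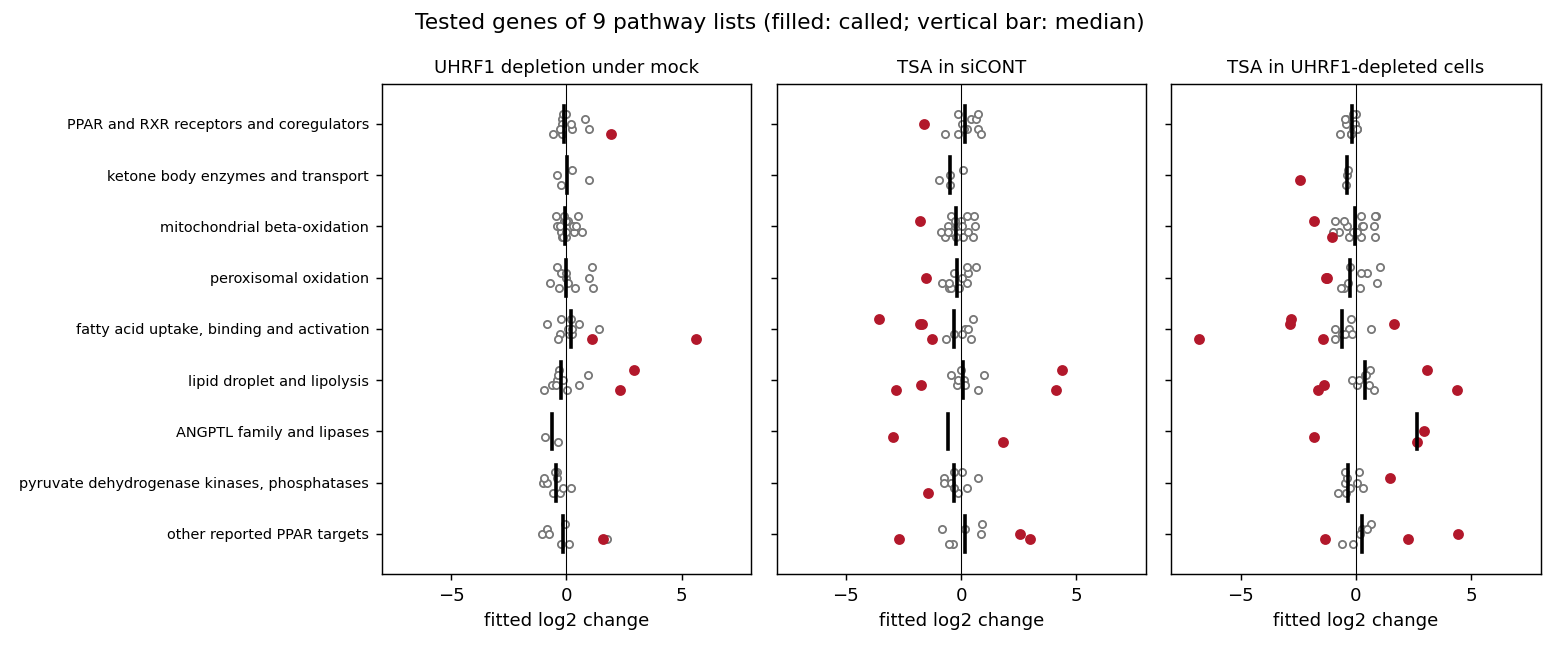
Fitted log2 change of the tested genes of 9 pathway lists for UHRF1 depletion under mock, TSA in siCONT cells and TSA in UHRF1-depleted cells. Filled red points passed the call, open points did not, and the black bar is the median of the genes drawn. The called genes of the left panel all lie right of 0, while those of the other panels lie on both sides. Not every tested gene is drawn. Fitted values of genes below background in a group are no measured fold.

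Among receptors and coregulators, RXRA, the obligate partner of the PPARs, was called higher with UHRF1 depletion. It read 1.70 and 1.72 in siCONT cells with mock, 3.53 and 3.77 with UHRF1 depletion, 2.57 and 2.56 in siCONT cells with TSA, and 3.14 and 2.77 in depleted cells with TSA. UHRF1 depletion raised it 3.84-fold under mock (1.94, SE 0.16, adjusted p = 0.0069, and 0.175 with siCONT as 1 sample), and the combination stood 1.25 above siCONT with mock (adjusted p = 0.0017, and 0.0520). PPARD, the most widely expressed PPAR, read 2.92 and 2.84, 2.88 and 2.49, 1.31 and 1.26, and 2.41 and 2.10 in the same order of groups. It fell by 1.60 on the log2 scale with TSA in siCONT cells (adjusted p = 0.0018, and 0.105 with siCONT as 1 sample). These were the only calls among the 12 tested genes of that list, apart from the interaction of RXRA.

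Among genes of ketone body metabolism, BDH1, which interconverts the ketone bodies acetoacetate and beta-hydroxybutyrate, read 1.61 and 1.63, 2.30 and 2.92, 0.75 and 0.60, and 0.28 and 0.06 in the order of groups used above. It was thus highest in depleted cells with mock and lowest in depleted cells with TSA. TSA lowered it 5.42-fold in depleted cells (-2.44, adjusted p = 0.0007, and 0.0076 with siCONT as 1 sample). ACAT1, OXCT1 and the monocarboxylate carrier SLC16A1 were tested and not called in any comparison.

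**Figure D4:**
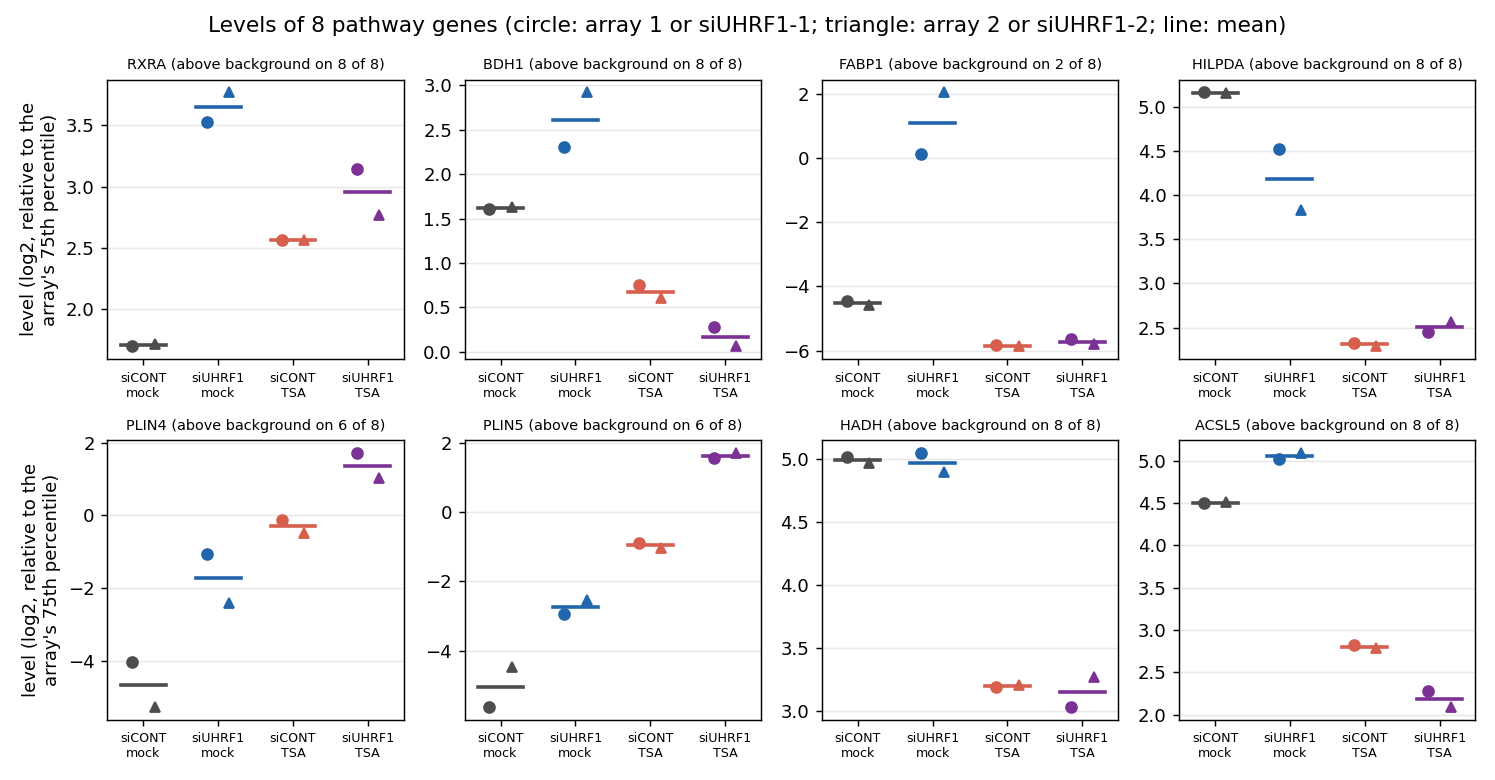
Levels of 8 pathway genes on the 8 arrays (log2, with the array's 75th percentile at 0), drawn as for the named genes. FABP1 was high only in UHRF1-depleted cells with mock, and PLIN4 and PLIN5 were highest in depleted cells with TSA. FABP1 was above background on 2 arrays and PLIN4 and PLIN5 on 6, so their lowest points are not measured levels, and the vertical axes differ.

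Few of the listed genes of mitochondrial beta-oxidation were called. HADH, the short-chain hydroxyacyl-CoA dehydrogenase, was lower with TSA whether or not UHRF1 was depleted: 5.01 and 4.96, and 5.04 and 4.89 with mock, against 3.19 and 3.21, and 3.03 and 3.27 with TSA. The TSA change of HADH was -1.79 in siCONT cells (adjusted p = 0.0006, and 0.0699 with siCONT as 1 sample) and -1.82 in depleted cells (adjusted p = 0.0003, and 0.0083). ACAA2, the thiolase of the last step, fell by 1.04 on the log2 scale with TSA in depleted cells, and CPT1C, a brain form of CPT1, was 1.82 higher in depleted than in siCONT cells under TSA. Of 18 tested genes 1 was called lower with TSA in siCONT cells and 2 in depleted cells. In peroxisomes, ACAA1 fell by 1.52 with TSA in siCONT cells and by 1.27 in depleted cells, on the log2 scale. No gene of either oxidation list was called for UHRF1 depletion under mock.

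Fatty acid handling held calls in both directions. FABP1, the liver fatty acid-binding protein and a PPARA target, was above background only in depleted cells with mock, at 0.13 and 2.04. It was at least 22.3-fold higher there than in siCONT cells with mock (adjusted p = 0.0089, and 0.139 with siCONT as 1 sample) and at least 24.7-fold higher than in depleted cells with TSA (adjusted p = 0.0005, and 0.0043). These p-values of limma rest on fitted values below background, and FABP1 was tested only through the group where it was high. ACSL5, an acyl-CoA synthetase of intestine, read 4.50 and 4.51, 5.02 and 5.09, 2.82 and 2.79, and 2.27 and 2.09 in the order of groups used above, a fall of 1.70 with TSA in siCONT cells and of 2.87 in depleted cells. ACSL6, another synthetase, was not above background on any siCONT TSA array and was at least 8.56-fold lower there than with mock. The transporter SLC27A3 fell by 1.78 with TSA in siCONT cells and by 1.45 in depleted cells, whereas SLC27A1 rose by 1.65 in depleted cells.

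Lipid droplet genes other than PLIN2 moved in both directions, with 2 of 12 tested genes higher and 2 lower with TSA in siCONT cells and the same counts in depleted cells. PLIN5, a droplet coat protein of oxidative tissue and a PPARA target, was below background in siCONT cells with mock and read -2.94 and -2.53 with UHRF1 depletion, -0.88 and -1.02 with TSA, and 1.56 and 1.70 with the combination. Against siCONT with mock it was at least 1.58-fold higher with UHRF1 depletion, at least 5.44-fold with TSA and at least 32.6-fold with the combination. The limma adjusted p were 0.0232, 0.0009 and 0.0001, and 0.128, 0.0325 and 0.0043 with siCONT as 1 sample. These p-values, like those of PLIN4 below, rest on fitted values below background in siCONT with mock. The bound of 1.58-fold is itself short of the 2-fold limit. PLIN4, of the same family, rose at least 3.16-fold, 8.51-fold and 27.1-fold (adjusted p = 0.0367, 0.0029 and 0.0006, and 0.288, 0.0643 and 0.0086 with siCONT as 1 sample). HILPDA, which inhibits the droplet lipase, fell by 2.85 with TSA in siCONT cells and by 1.67 in depleted cells, and the hormone-sensitive lipase LIPE fell by 1.76 and 1.38.

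The closest relatives of the named genes did not all follow them. In the list of angiopoietin-like proteins and lipases, which did not include ANGPTL4, 3 of 11 genes could be tested in the combination. ANGPTL6, above background on 7 of 8 arrays, rose by 1.82 with TSA in siCONT cells and by 2.67 in depleted cells, opposite in sign to ANGPTL4, and the endothelial lipase LIPG fell by 2.97 and 1.81. LMF1, which matures lipases, was above background only in depleted cells with TSA and was at least 4.51-fold higher there than in siCONT cells with mock. Among the partners of PDK4, PDK1 fell by 1.43 with TSA in siCONT cells (adjusted p = 0.0214, and 0.259 with siCONT as 1 sample) and by 1.34 with the combination, while the phosphatase PDP1, which turns the complex back on, rose by 1.47 with TSA in depleted cells. Of the other reported PPAR targets, TXNIP fell by 2.71 with TSA in siCONT cells and by 1.32 in depleted cells, and AQP3 rose by 2.99 and 2.25. CREB3L3, a liver and gut transcription factor, was at least 3.56-fold and 11.0-fold higher with TSA in these cells, and UCP2 was 1.59 higher with UHRF1 depletion under mock.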

How the data were processed

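Processed intensities of 8 one-colour arrays (SurePrint G3 Human GE v2) were taken as deposited: the authors scanned them with Agilent Feature Extraction 10.7.3.1, which subtracts background, and analysed them in GeneSpring GX. The deposited value table held the same processed intensity per spot (ratio 0.995 to 1.00). Probe coordinates are those of the array files (hg19). Control spots and spots with outlier flags were left out, spots of a probe were averaged, and log2 intensities were centred on each array's 75th percentile. limma 3.58.1 in R 4.3.3 fitted the 4 group means over 8 arrays (24580 probes, 4 residual degrees of freedom). A probe was tested when well above background on both arrays of a group compared, with two-sided p-values adjusted by Benjamini-Hochberg over all probes tested. Where all arrays of a group were below background, a fold is a lower bound: the bright group's mean against, per array, the higher of the dim probe and the lowest probe well above background.

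A gene's main probe was the brightest over all arrays. From each list up to 3 called genes of largest change per comparison were named, with their values elsewhere, and 3 genes by Pearson's r per member. The members and lists were chosen with earlier results of these data known, and no test over a list was made. The labels do not say whether arrays came from separate cultures, so p-values measure the spread between these arrays only. In simulated data of the combination (23728 probes), 78.9% of log2 changes of 2 and 92.8% of log2 changes of 3 were recovered. False calls were 0.0382%. The simulation drew the arrays independently, with the same spread per probe in every group. With mock and TSA, the real siCONT pairs differed by 1.16 and 1.08 times the spot noise, siUHRF1 pairs by 12.5 and 10.3 times. The simulated rates therefore cannot be taken as the recovery or false calls of the reported fit on the real arrays. Arrays of the same number deviated together only between the siUHRF1 groups (r = 0.34, others from -0.06 to 0.07), where the number names the siRNA, and the reported model took no pairs. Alternatives were normexp background correction, quantile, median and detected-probe scaling, other filters on dim probes, the deposited value table, the methods' t-test, smaller fits, a replicate block, the mean over a gene's probes, siCONT pairs as 1 sample and leaving out each array. Leaving out an array leaves 1 array in its group, which then adds nothing to the estimated spread. Promoter windows came from RefSeq (GRCh38.p14) by symbol, with all 7 genes matched. Some genes of the lists are counted but not reported here by name.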

Additional observations from a re-analysis of the deposited data

Results flagged for a closer look

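For 5 genes of the pathway lists the interaction, the TSA effect in UHRF1-depleted cells set against that in siCONT cells, was called. The difference, depleted minus siCONT, was -5.48 on the log2 scale for FABP1, which was above background only in depleted cells with mock, -1.55 for RXRA, -1.49 for BDH1, -1.17 for ACSL5 and 1.61 for SLC27A1. The FABP1 value is no measured difference: its TSA effect in siCONT cells could not be read below background, so its test decides nothing. In limma the adjusted p were 0.0249, 0.0258, 0.0474, 0.0249 and 0.0212. None passed when each siCONT pair was entered as 1 sample (adjusted p = 0.323, 0.442, 0.508, 0.497 and 0.421). None of the 7 named genes was among them.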

How the results depend on the processing

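With the siCONT arrays as 1 sample no named gene was called for TSA in siCONT cells or in depleted cells (0 in each), and the pathway genes called numbered 0 for UHRF1 depletion with mock, 2 for TSA given to siCONT cells, 15 for the combination, 2 for UHRF1 depletion under TSA and 0 for the interaction. With normexp correction the 1 named gene called for TSA in siCONT cells, and the 1 for the combination, was ANGPTL4. Its TSA values led to its choice. Counts of named genes in this section hold ANGPTL4 wherever it was called, and are a description and no test. Among all tested probes 1707 and 2637 were called in these comparisons with normexp. Pathway genes called with normexp were 3 for UHRF1 depletion under mock and 9 for the interaction. Median scaling gave 5 named genes for the combination, 5 for TSA in depleted cells (ANGPTL4 in both) and 1 for UHRF1 depletion under TSA. Called among all tested probes, in the same order, were 8197, 6751 and 3000. This scaling gave 39 pathway genes for the combination, 9 for UHRF1 depletion under TSA and 8 for the interaction. It shifted the median of all tested probes from -0.14 to -0.54 in the combination, from -0.04 to -0.43 for TSA in depleted cells and from 0.00 to -0.35 for UHRF1 depletion under TSA, the same constant for every gene. Scaling on probes above background on all arrays raised the share of higher calls from 56.9% to 72.1% in the combination, from 55.8% to 66.2% for TSA in siCONT cells, from 65.2% to 75.6% for UHRF1 depletion under TSA and from 56.5% to 68.3% for TSA in depleted cells. Without the filter on dim probes pathway calls were 4 for UHRF1 depletion under mock, 3 under TSA and 0 for the interaction. Restricted to probes detected on every array they were 3, 3 and, for TSA in depleted cells, 14. For TSA in depleted cells named genes called were 0 without the filter, 2 with the strict filter, 2 under quantile normalization, 0 with only the arrays of the groups compared and 0 by the methods' t-test, adjusted or not. With only the arrays compared, pathway calls for UHRF1 depletion under mock were 0. The unadjusted t-test gave 15 pathway genes for TSA in depleted cells, and the adjusted one 0 there, 0 for UHRF1 depletion under mock, 0 under TSA and 13 for the combination. Leaving out each array in turn, named genes called ranged from 0 to 1 for UHRF1 depletion with mock, from 1 to 3 for TSA in siCONT cells, 2 to 4 for the combination, 0 to 1 for UHRF1 depletion under TSA, 1 to 3 for TSA in depleted cells and 0 to 1 for the interaction, and pathway genes from 1 to 12, 16 to 19, 21 to 26, 0 to 9, 20 to 27 and 0 to 14.

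With the array number as a replicate block 2 named genes, ANGPTL4 and PDK4 (-1.24, adjusted p = 0.0226), were called for TSA in depleted cells, and no other count of named or pathway calls moved by over 1.5 times. In the depleted groups the number names the siRNA, while no shared unit is known for the siCONT numbers.

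Changes of sign came in values that were not called in the fit given in the report. The interaction of ACADM became 0.025 with quantile normalization and 0.013 with scaling on detected probes, that of PPARA 0.0043 with normexp and 0.68 with the mean of its probes, and that of PLIN2 0.17 with normexp. UHRF1 depletion under mock became 0.047 for PPARG with quantile normalization and 0.0026 with scaling on detected probes. Under median scaling UHRF1 depletion under TSA became -0.28 for ACADM, -0.14 for ANGPTL4, -0.26 for CPT1A and -0.066 for PDK4, and the interaction of CPT1A -0.042. With arrays left out in turn, UHRF1 depletion under mock ranged from -0.48 to 0.069 for CPT1A, -0.69 to 0.18 for PDK4 and -0.35 to 0.20 for PPARG. UHRF1 depletion under TSA ranged from -0.11 to 0.54 for ANGPTL4, -0.28 to 0.47 for CPT1A, -0.089 to 0.67 for PDK4 and -0.30 to 2.37 for PLIN2. TSA in depleted cells ranged from -1.82 to 0.85 for PLIN2. The interaction ranged from -0.0851 to 0.051 for ACADM, -0.071 to 0.67 for CPT1A, -1.58 to 1.09 for PLIN2 and -0.23 to 0.00059 for PPARA. The cause of these changes was not tested. The number of arrays limits the precision of every value.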
